A study of Mus musculus with 24 samples.

Results

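Flk1+ cells of mouse embryoid bodies were compared between 8 d and 95 h of differentiation, over all probes of 8 of the 24 arrays in the series. Embryoid bodies are aggregates in which embryonic stem cells differentiate in culture. Flk1 is the receptor for vascular endothelial growth factor (VEGF) encoded by Kdr, and cells with it on their surface (Flk1+) were separated from cells without it (Flk1-). The 8 arrays were chosen by their labels, 4 of Flk1+ cells at 95 h and 4 of Flk1+ cells at 8 d. The other 16 arrays held 4 samples each of Flk1- cells at 95 h and 8 d and of both sorted fractions at 84 h. The labels give no genotype, stem cell line, culture medium or added factor for any group. They number the samples of a group 1 to 4 without saying that these came from separate cultures, so the p-values rest on how far these samples differ from each other, and that spread may be technical only. A sorted fraction is a mixture defined by 1 surface protein, and in RNA of such a fraction fewer cells of a type and less RNA per cell cannot be told apart.

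Flk1 marks mesoderm that has left the primitive streak and can give rise to endothelium, blood, smooth muscle and heart. Endothelial cells keep the receptor while they form junctions and vessels, and most other descendants lose it. The streak and the nascent mesoderm are built under Wnt, Nodal and FGF signals, and Wnt signalling during endothelial commitment is in the title of the study. The comparison asks which genes changed in Flk1+ cells between an early time, when these cells are nascent mesoderm, and a late time, when vessels form in embryoid bodies.

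Every array set RNA of sorted cells, labelled with Cy5, against a common reference of RNA from whole mouse pups, labelled with Cy3. A level is therefore a log2 ratio to that reference, with the median of each array set to 0, and a difference of 1 is a change of 2-fold. The medians of the 8 arrays before that step ran from 0.046 to 0.127. The level of the reference here means 0 after that step. The sources used here do not name the log base, and with another base the fold changes below would differ while signs and calls would not. Levels of different genes are not compared, since each probe has its own reference signal. Errors after a mean are SDs of 4 arrays, and errors of a difference are standard errors (SE) from 1 limma fit to all 24 arrays. A feature, which is a named gene or an unnamed probe, was called at a Benjamini-Hochberg adjusted p under 0.05 over all 17440 features.

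Of the 17440 features 3861 were called, 22.1% of those tested. There were 2238 features higher at 8 d, 12.8% of all, and 1623 lower, 9.31% of all. Among the 8973 named genes 1567 rose (17.5%) and 1001 fell (11.2%), and these shares are the background for each gene list described here. The 4 arrays of 8 d and the 4 of 95 h did not overlap for 6034 features, 34.6% of all. The changes were larger upward than downward. The called difference reached 1 for 584 features that rose and 193 that fell, and it reached 2 for 86 and 12. The median difference was -0.0119 over all features and 0.0064 over named genes, with a median SE of 0.16.

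The arrays of 8 d had a narrower range of values than those of 95 h. The SD over features ran from 0.562 to 0.602 per array at 8 d and from 0.740 to 0.780 at 95 h. Correlations between arrays of a group ran from 0.925 to 0.955 at 8 d and from 0.751 to 0.855 at 95 h, and those between the times from 0.597 to 0.696. Of all features, 65.8% had a mean nearer the level of the reference at 8 d, as did 75.2% of those called. Of the 2238 features that rose, 2016 lay below the reference at 95 h, and 1103 of these were still below it at 8 d. Of the 1623 that fell, 1427 lay above the reference at 95 h, and 764 of these were still above it. With every array brought to 1 SD, a choice made after seeing the data, 4612 features were called and 51.2% of them rose. With the arrays quantile normalized 5001 features were called and 46.1% of them rose, against 58.0% with only the array medians set to 0. With the values as deposited 4012 features were called, 1999 higher and 2013 lower, so 49.8% of them rose. The share of rises among the calls thus depended on the scaling. Of the 3861 calls 3355 were also called with every array brought to 1 SD, and 3023 after quantile normalization. Without 3 arrays of 84 h that stood apart from their groups (Flk1+ 2 and 4, Flk1- 4) 5864 features were called. The direction of the ratios was checked on means over both fractions. At 84 h 3 of 3 pluripotency genes lay above the reference, while 8 of 9 genes of newborn tissues lay below it over all arrays. The check was not made on Flk1+ arrays alone.

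**Figure D1:**
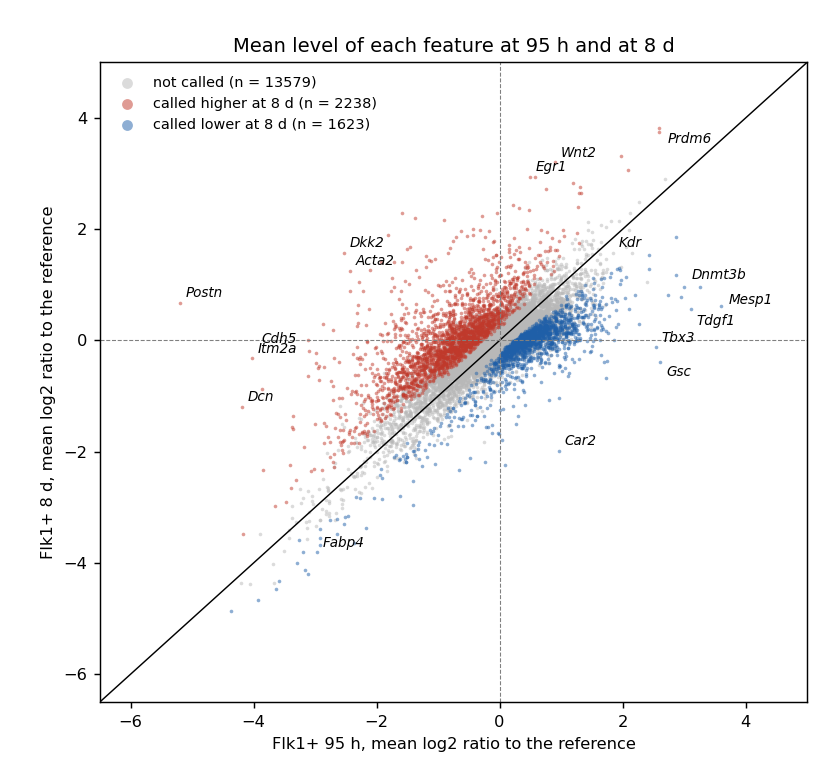
Mean log2 ratio of each feature to the reference in Flk1+ cells at 95 h (horizontal) and at 8 d (vertical), means of 4 arrays, with the diagonal of equal level. Red points are the 2238 features called higher at 8 d, blue points the 1623 called lower and grey points the rest, and the cloud is flatter than the diagonal since the arrays of 8 d had the narrower range.

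Kdr, the gene of the sort, stayed above the reference on all 8 arrays. Its log2 ratio was 1.88, 1.73, 1.79 and 1.98 at 95 h and 1.46, 1.51, 1.46 and 1.89 at 8 d. The means were 1.85 ± 0.11 (SD, n = 4) and 1.58 ± 0.21, and the difference of -0.27 (SE 0.23, adjusted p = 0.458) was not called. The arrays of the 2 times overlapped. In Flk1- cells Kdr was at -1.08 at 95 h and at -0.31 at 8 d.

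Genes of the primitive streak and the nascent mesoderm fell, with Gsc and Mesp1 at the head of all falls of named genes without overlap. Of 13 measured members of that list 9 fell, 1 rose and 3 were not called, with a median difference of -1.22. Gsc, a homeobox gene of the organizer, was at 2.86, 2.63, 2.47 and 2.51 at 95 h and at -0.37, -0.61, -0.17 and -0.37 at 8 d. All arrays of 95 h lay above the reference and all arrays of 8 d below it, a fall by 3.00 (SE 0.18, adjusted p = 9.84e-11) or 7.98-fold. Mesp1, which marks mesoderm leaving the streak, was at 3.72, 3.30, 3.71 and 3.70 at 95 h and at 0.77, 0.38, 0.64 and 0.72 at 8 d. It fell by 2.98 (SE 0.28, adjusted p = 5.52e-08), and its values at 8 d remained above the reference. Tdgf1, the Nodal coreceptor Cripto, fell by 2.54 from 3.11 to 0.57, and Lhx1, a factor of the organizer and early mesoderm, fell by 1.87 from 1.87 to the level of the reference. Hoxb1, the most 3' gene of its cluster, fell by 1.57, Snai1, a repressor of E-cadherin in cells leaving the streak, fell by 1.35, and Eomes, a T-box factor of the streak, fell by 1.22. Evx1 fell by 1.05 and Fgf8, an FGF ligand of the streak, by 0.64. The separate probes of Fgf8 gave -1.12 and -0.17. The member that rose was Snai2, a relative of Snai1 found in mesenchyme and neural crest. It was at -1.31, -1.40, -0.88 and -1.92 at 95 h and at 2.20, 2.24, 1.85 and 2.50 at 8 d, a rise by 3.58 (SE 0.21, adjusted p = 4.76e-11) or 11.9-fold. The 2 Snail family members thus moved in opposite directions.

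Genes of pluripotent cells and the epiblast fell as well. Of 29 measured members 13 fell, 1 rose and 15 were not called, with a median difference of -0.55. Dnmt3b, a de novo DNA methyltransferase of the epiblast, was at 3.28, 2.60, 3.06 and 3.05 at 95 h and at 0.95, 0.87, 1.12 and 0.94 at 8 d. It fell by 2.03 (SE 0.14, adjusted p = 9.78e-10) or 4.08-fold. Lefty2, a secreted Nodal inhibitor, fell by 2.16 from 2.94 ± 0.41 to 0.78 ± 0.26, and Otx2, a homeobox gene of epiblast and forebrain, by 2.13 from 1.75 ± 0.18 to -0.37 ± 0.10. Zfp42, also named Rex1, fell by 1.54, Sall4 fell by 1.16, Fgf5 fell by 0.96 and Nanog fell by 0.66. The separate probes of Sall4 gave -1.78 and -0.54. Sox2 was not called. It was below the reference at both times in Flk1+ cells (-0.96 and -0.89), and in Flk1- cells it was at 1.71 at 95 h and at 0.07 at 8 d. The member that rose was Cdh3, which encodes P-cadherin. It went from -0.90 ± 0.17 to 2.16 ± 0.16, a rise by 3.06 (SE 0.13, adjusted p = 4.3e-13). Of 18 measured genes of DNA methylation and Polycomb repression 4 fell, Dnmt3b among them, and 2 rose.

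**Figure D2:**
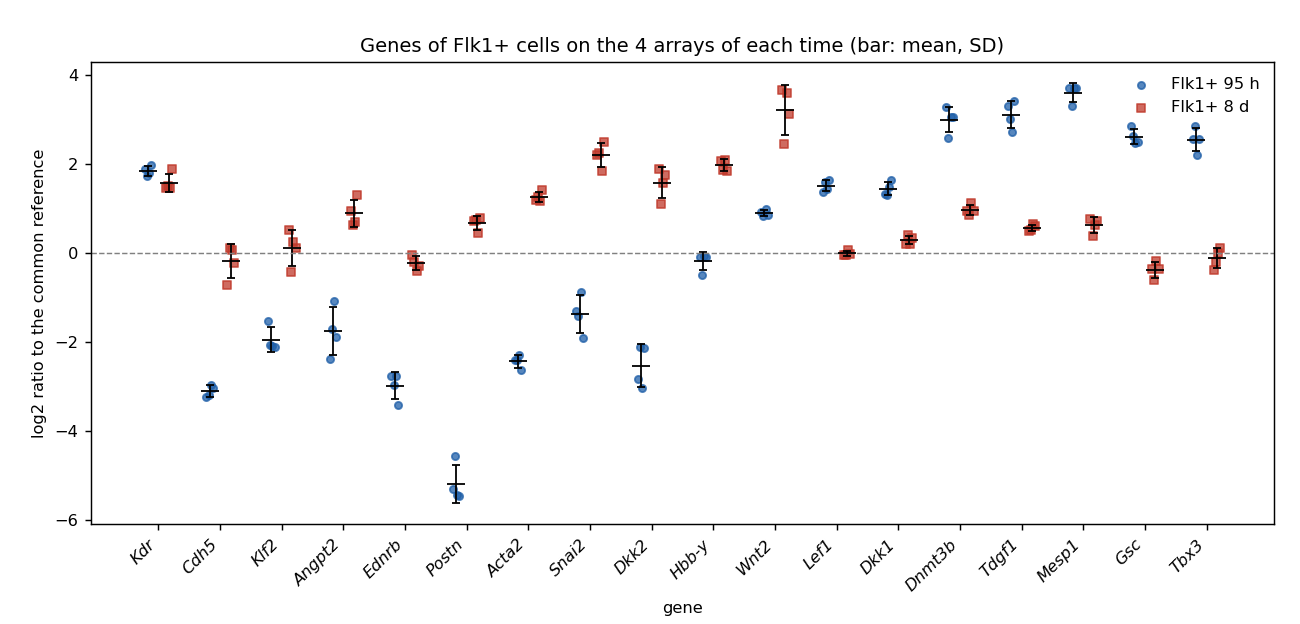
Log2 ratio to the reference of 18 genes on the 4 Flk1+ arrays of 95 h (blue circles) and the 4 of 8 d (red squares), with mean and SD as black bars. For Kdr the 2 times overlap, for the 17 other genes they do not, and Postn has the widest gap. Several of the 17, such as Postn and Gsc, were named by a rule that required no overlap.

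Endothelial genes rose at 8 d, though not all of those measured. Of 21 measured genes of endothelial junctions and surface 10 rose, 0 fell and 11 were not called, with a median difference of 0.44. Cdh5 encodes VE-cadherin, the cadherin of endothelial junctions. It was at -3.23, -3.19, -2.96 and -3.02 at 95 h and at -0.71, 0.12, 0.07 and -0.21 at 8 d. Every array of 8 d was above every array of 95 h, and Cdh5 rose by 2.92 (SE 0.15, adjusted p = 1.32e-11) or 7.57-fold. Ednrb, an endothelin receptor, was at -2.77, -2.97, -2.76 and -3.41 at 95 h and at -0.03, -0.19, -0.40 and -0.29 at 8 d. It rose by 2.75 (SE 0.24, adjusted p = 3.14e-08) or 6.72-fold. Smaller rises were those of Procr, the endothelial protein C receptor (1.74), Eng, a TGF-beta coreceptor named endoglin (1.07), and Thbd, the anticoagulant receptor thrombomodulin (0.95). Mcam, an adhesion molecule of endothelium and pericytes, rose by 0.94, Cd34, a sialomucin of endothelial and blood progenitors, by 0.77 and Clec14a, an endothelial lectin, by 0.73. After quantile normalization the differences of Thbd and Cd34 were 0.54 and 0.34 and were not called. Pecam1, an adhesion molecule of endothelial junctions, had a mean of -0.32 at 95 h and -0.14 at 8 d. Esam was at -0.55 and -0.52, and neither gene was called.

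Of 15 measured genes of VEGF, angiopoietin, apelin and adrenomedullin signalling 6 rose, 0 fell and 9 were not called, with a median difference of 0.21. Angpt2, a ligand of the receptor Tie2 that endothelial cells release, was at -2.38, -1.71, -1.07 and -1.88 at 95 h and at 0.95, 0.63, 0.71 and 1.30 at 8 d. Its arrays of 95 h all lay below the reference and those of 8 d all above it, a rise by 2.66 (SE 0.24, adjusted p = 5.3e-08) or 6.32-fold. Adm, the peptide adrenomedullin, rose by 0.90, and both parts of its receptor rose with it, Calcrl by 0.91 and Ramp2 by 0.97. Nrp1, a coreceptor for VEGF and semaphorins, rose by 1.69 (SE 0.11, adjusted p = 1.61e-10), with 0.77 and 2.92 on its lowest and highest probe. Flt1, the VEGF receptor that binds most tightly, was at -0.29 ± 0.20 and -0.19 ± 0.27, and Aplnr, the apelin receptor, at 0.42 ± 0.18 and 0.06 ± 0.15. Neither was called.

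Of 20 measured transcription factors of endothelium and early blood 9 rose, 1 fell and 10 were not called, with a median difference of 0.22. Klf2, which endothelial cells induce under flow, was at -1.53, -2.06, -2.10 and -2.12 at 95 h and at 0.51, -0.44, 0.25 and 0.12 at 8 d. It rose by 2.06 (SE 0.20, adjusted p = 1.11e-07) or 4.18-fold. Elk3, an ETS factor, rose by 1.42 from -0.93 ± 0.13 to 0.49 ± 0.08. Hey2, a Notch target of arterial endothelium and heart, rose by 1.08 and Nr2f2, a factor of venous endothelium and mesenchyme, by 1.05. The separate probes of Nr2f2 gave 0.26 and 1.84. The member that fell was Hey1, a relative of Hey2, by 0.30 (adjusted p = 0.0262), and this call was lost without 95 h array 1 (adjusted p = 0.115) and without 8 d arrays 1, 3 or 4 (adjusted p = 0.0789, 0.0579 and 0.0523). Sox18, a factor of endothelial and lymphatic development, was at 0.33 and 0.12 and was not called. Of 13 measured genes of caveolae and lipid handling 6 rose and 1 fell. The median of this list was 0.475, and -0.127 with every array brought to 1 SD, so its direction depended on the range of the arrays. Scarb1, a receptor for high-density lipoprotein, rose by 1.57 and Cavin1, a coat protein of caveolae, by 1.29. Fabp4, a fatty acid carrier of fat cells and capillaries, fell by 0.83 from -2.97 to -3.81.

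Promoters are shown for Ctla2b, Cd34 and Elk3, genes that rose and whose windows hold the letters CAGGAAG, a form of the core that ETS factors can bind. ETS factors act in many endothelial promoters and enhancers. The sequences are from RefSeq (build GRCm38.p6), read 5′ to 3′ on the strand of the gene over the 250 bases before its start, with CAGGAAG on either strand in capitals. The Ctla2b window is chr13:60897448-60897697 (minus strand), with a match 152 bases before the start on the opposite strand and another 18 bases before it on the strand of the gene. The Cd34 window is chr1:194938571-194938820 (plus strand), with a match 142 bases before the start on the opposite strand. The Elk3 window is chr10:93311160-93311409 (minus strand), with a match 27 bases before the start on the strand of the gene.
Ctla2b: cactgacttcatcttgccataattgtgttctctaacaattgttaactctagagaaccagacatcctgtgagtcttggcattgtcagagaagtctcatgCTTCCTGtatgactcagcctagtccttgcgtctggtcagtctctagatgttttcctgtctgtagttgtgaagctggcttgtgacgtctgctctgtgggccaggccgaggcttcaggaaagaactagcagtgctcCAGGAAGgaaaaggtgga
Cd34: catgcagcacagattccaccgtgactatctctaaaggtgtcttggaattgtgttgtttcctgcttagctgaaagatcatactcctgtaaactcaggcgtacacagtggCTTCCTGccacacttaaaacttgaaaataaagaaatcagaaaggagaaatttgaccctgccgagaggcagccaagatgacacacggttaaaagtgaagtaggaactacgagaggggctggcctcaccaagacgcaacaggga
Elk3: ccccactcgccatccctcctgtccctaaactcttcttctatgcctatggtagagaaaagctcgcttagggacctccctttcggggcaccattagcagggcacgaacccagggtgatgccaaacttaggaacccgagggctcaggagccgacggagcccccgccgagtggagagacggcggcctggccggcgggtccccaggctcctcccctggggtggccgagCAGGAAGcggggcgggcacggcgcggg
Such a match is common. It occurs in 10.8% of the 32851 windows of this length, and in 1 or more windows of 12.1% of the 27025 genes of the table. Of the 25 genes of the 3 endothelial lists that rose, 19 were in the table and 5 had a match (26.3%). Ctla2b is in none of these lists. It is among the 47 named genes whose change was called higher in Flk1+ than in Flk1- cells. Of those 47, 39 were in the table and 6 had a match (15.4%). The 3 genes were picked for their match, and no binding was measured.

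Many fibroblast and matrix genes rose, as did part of the smooth muscle genes. Postn, the gene with the largest rise among those named, encodes periostin, a matrix protein of mesenchyme. It was at -5.30, -4.57, -5.45 and -5.47 at 95 h and at 0.71, 0.75, 0.44 and 0.80 at 8 d. All arrays of 95 h lay far below the reference and all arrays of 8 d above it, a rise by 5.87 (SE 0.19, adjusted p = 3.76e-15) or 58.6-fold. Acta2, smooth muscle actin, was at -2.41, -2.41, -2.28 and -2.63 at 95 h and at 1.18, 1.25, 1.17 and 1.41 at 8 d. It rose by 3.69 (SE 0.11, adjusted p = 8.69e-16) or 12.9-fold. Of 38 measured genes of fibroblasts and mesenchymal matrix 22 rose, 0 fell and 16 were not called, with a median of 0.63. With every array brought to 1 SD 20 of them rose and 3 fell. Pcolce, which speeds the maturation of collagen, rose by 3.16, Tgfbi, a matrix protein induced by TGF-beta, by 3.09 and Dcn, the proteoglycan decorin, by 2.99. Ccn2, a matricellular protein also named CTGF, rose by 2.81, Emilin1, a protein of elastic fibres, by 1.90 and Sparc, a collagen-binding protein, by 1.84. Vim, the intermediate filament of mesenchyme, rose by 1.36. Among fibrillar collagens Col1a2 rose by 0.94 and Col3a1 by 0.67, while Col1a1 was at -0.01 and -0.04 and was not called. With every array brought to 1 SD the difference of Col3a1 was 0.39 and was not called (adjusted p = 0.0751). The separate probes of Col3a1 gave 0.23 and 1.11. Those of Thbs1 (thrombospondin), called at a mean of 1.96, gave -0.10 and 4.01, so its rise rests on 1 probe.

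The mural list was split. Of 24 measured genes of pericytes and smooth muscle 10 rose, 2 fell and 12 were not called, with a median of 0.11, and with every array brought to 1 SD 9 rose and 5 fell. Csrp2, a LIM protein of smooth muscle, went from -0.62 to 1.96 and rose by 2.58. Pdgfrb, the PDGF receptor of pericytes, was at -1.83, -1.39, -1.32 and -1.34 at 95 h and at 1.17, 0.84, 1.16 and 0.91 at 8 d. It rose by 2.49 (SE 0.16, adjusted p = 3.97e-10). Kcnj8, a potassium channel of pericytes, rose by 1.43 and Myl9, a regulatory light chain of smooth muscle myosin, by 1.07. Myh11, smooth muscle myosin, was at -2.04 and -2.19 and Cnn1, calponin, at -0.80 and -0.94, and neither was called. With every array brought to 1 SD both were called lower, Myh11 at -0.78 (adjusted p = 0.023) and Cnn1 at -0.40 (adjusted p = 0.0281). After quantile normalization Cnn1 was called lower too (-0.55, adjusted p = 0.00317). Tpm1 fell by 0.44, and Rgs5, a pericyte regulator of G proteins, fell by 0.34 (adjusted p = 0.0208), a call lost without array 3 of 95 h or of 8 d (adjusted p = 0.0874 and 0.0628). Of 31 measured genes of basement membranes and integrins 11 rose and 0 fell, with a median of 0.27. Col18a1, the collagen that holds endostatin, went from -1.71 to 1.40 and rose by 3.11. Col4a5 rose by 2.47, Lamb2 by 2.45, Nid1 by 2.13 and Nid2 by 1.48, all of them components of basement membranes, and the integrin subunit Itga4 rose by 1.24.

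The same stromal genes rose in Flk1- cells, where Postn rose by 5.54, Acta2 by 3.58, Pdgfrb by 2.76 and Dcn by 3.13. The mean level of the 5 measured fibroblast markers went from between -2.68 and -2.35 per array to between -0.546 and -0.248 in Flk1+ cells. In Flk1- cells it went from between -2.54 and -2.27 to between -0.503 and -0.334. In Flk1+ cells 4 of these 5 markers were called higher and 0 lower, with a median difference of 0.943. Postn (5.87) and Dcn (2.99) had the largest differences, and Col1a1 (-0.03) was not called. The 7 measured mural markers went from between -1.54 and -1.43 to between -0.663 and -0.608 in Flk1+ cells, and to between -0.79 and -0.468 in Flk1- cells. The median difference of these 7 in Flk1+ cells was -0.144, with 3 called higher and 1 lower, so the mean rose with Acta2, Pdgfrb and Myl9 and not with the list as a whole. The 8 endothelial markers, Kdr included, went from between -0.957 and -0.789 to between -0.41 and -0.00206 in Flk1+ cells. In Flk1- cells they were between -1.2 and -0.958 at 95 h and between -1.16 and -1.06 at 8 d. In Flk1+ cells 4 of these 8 markers were called higher and 0 lower, with a median difference of 0.397. Cdh5 (2.92) had the largest difference, and Kdr, Flt1, Pecam1 and Esam were not called. The levels of stromal markers thus moved in both fractions, and their part in the rises of endothelial genes was not tested.

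**Figure D3:**
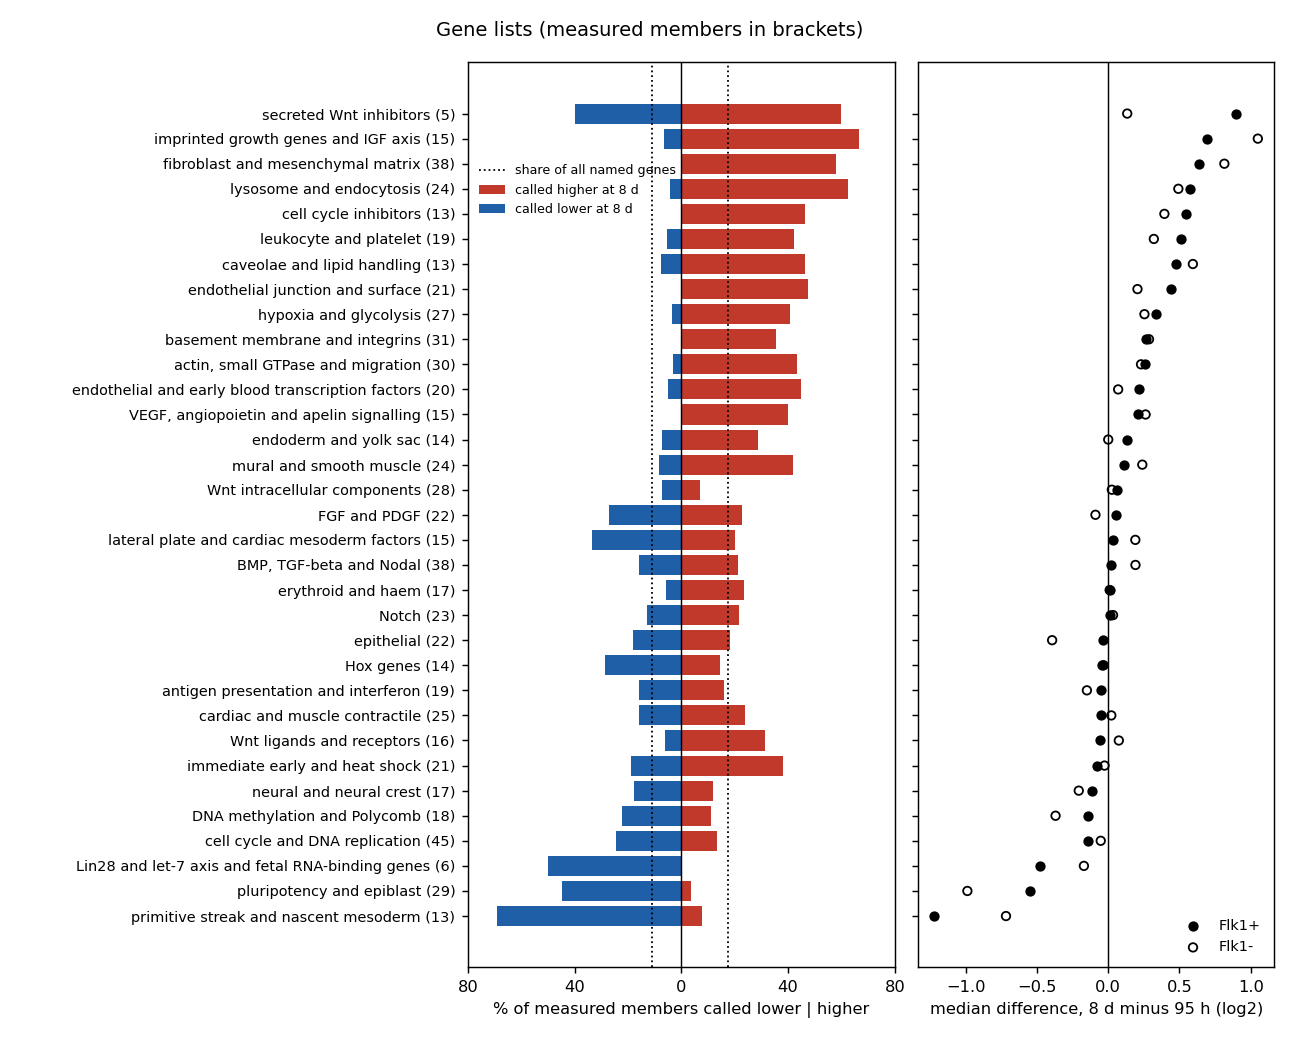
Share of the measured members of each gene list called lower (blue, to the left) and higher (red, to the right) at 8 d in Flk1+ cells, with the 11.2% and 17.5% of all named genes as dotted lines, and the median log2 difference of each list in Flk1+ (filled) and Flk1- cells (open). The list of primitive streak and nascent mesoderm has the lowest Flk1+ median at -1.22, and no measured gene of fibroblast matrix, basement membranes or endothelial junctions was called lower.

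Of 17 measured erythroid and haem genes 4 rose and 1 fell, with a median of 0.01, and 2 rose and 4 fell with every array brought to 1 SD. Hbb-y, the embryonic beta-type globin of primitive red cells, was at -0.09, -0.48, -0.06 and -0.08 at 95 h and at 2.08, 1.87, 2.10 and 1.84 at 8 d. It rose by 2.15 (SE 0.14, adjusted p = 2.61e-10), and by 2.22 in Flk1- cells. Globin genes resemble each other, so the signal of this probe may include other beta-type globins. Car2, carbonic anhydrase, fell by 2.95 (SE 0.25, adjusted p = 1.91e-08) from 0.97 ± 0.28 to -1.98 ± 0.10. Kit, the receptor of stem cell factor, was at -1.06, -1.04, -0.65 and -1.25 at 95 h and at 0.54, 0.43, 0.54 and 0.48 at 8 d, a rise by 1.50 (SE 0.22, adjusted p = 3.63e-05). Of 19 measured leukocyte and platelet genes 8 rose and 1 fell, with a median of 0.51. Plek, a substrate of protein kinase C in platelets and leukocytes, went from -1.46 ± 0.19 to 1.68 ± 0.42 and rose by 3.14. Fermt3, the kindlin that activates integrins in blood cells, went from -1.51 ± 0.26 to 1.64 ± 0.57 and rose by 3.15. Laptm5, a lysosomal membrane protein of leukocytes, was the member that fell, by 1.12. The mean level of 4 erythroid markers, 3 of them called higher, went from between -0.704 and -0.337 per array to between 0.345 and 0.426 in Flk1+ cells, and from between -0.589 and -0.1 to between 0.64 and 0.826 in Flk1- cells. The 4 leukocyte markers had a mean level between -0.572 and -0.0549 at 95 h and between -0.389 and -0.318 at 8 d. Of these 4 markers 1 was called higher and 1 lower.

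Among factors of the lateral plate and the early heart 3 of 15 measured members rose, 5 fell and 7 were not called, while 5 rose and 4 fell both after quantile normalization and with every array brought to 1 SD. Tbx4, a T-box factor of hindlimb and allantois, was at -2.17, -1.51, -0.78 and -1.87 at 95 h and at 2.51, 1.37, 2.63 and 2.66 at 8 d. It rose by 3.87 (SE 0.33, adjusted p = 1.31e-08) or 14.7-fold. Its relative Tbx3 was at 2.56, 2.86, 2.21 and 2.57 at 95 h and at -0.39, -0.20, 0.01 and 0.11 at 8 d. It fell by 2.67 (SE 0.18, adjusted p = 3.65e-10) or 6.35-fold, and at 8 d it lay near the reference, with 2 arrays below it and 2 above. The 2 T-box genes thus changed in opposite directions. Gata3 fell by 1.29 and Msx2, a target of BMP signals, by 1.07. Prdm6, a repressor found in vascular smooth muscle precursors, was already at 2.59 at 95 h and rose by 1.15. Gata6, a factor of heart and endoderm, rose by 0.56, with 0.25 and 1.05 on its lowest and highest probe. Hand1, a factor of extraembryonic mesoderm and heart, was at 2.11 and 1.99 and was not called. Of 14 measured Hox genes 2 rose and 4 fell, and 2 rose and 2 fell after quantile normalization. Hoxa10, a posterior member, went from -1.60 ± 0.15 to 0.89 ± 0.53, a rise by 2.49 (SE 0.21, adjusted p = 1.71e-08), while anterior Hoxb1 fell.

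Of the 25 measured genes of cardiac and skeletal muscle contraction 6 rose and 4 fell with array medians at 0, and with every array brought to 1 SD 2 rose and 14 fell. The counts of calls in this list therefore depended on the range of the arrays, while its median was below 0 with either scaling (-0.0495 and -0.511). Tnni1, slow troponin I, rose by 1.49. Myl7, the light chain of atrial myosin, was at 0.59 and -0.05 and was not called, though it was called lower in 6 other settings, such as quantile normalization (-0.62, adjusted p = 0.0404). Of 22 measured epithelial genes 4 rose and 4 fell, and 3 rose and 8 fell after quantile normalization. Epcam, an epithelial adhesion molecule, fell by 1.17 from -1.05 to -2.22, and Krt19, a simple keratin, rose by 1.20. Stmn2, a tubulin-binding protein of neurons, fell by 1.56 from -1.40 to -2.97, with -2.27 and -0.86 on its separate probes.

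Secreted regulators of Wnt signalling changed in both directions. Wnt ligands act through Frizzled and Lrp receptors, and Dkk proteins block or modify the Lrp coreceptors. All 5 measured secreted inhibitors were called, 3 higher and 2 lower. Dkk2 was at -2.84, -2.11, -3.03 and -2.14 at 95 h and at 1.89, 1.09, 1.57 and 1.77 at 8 d. It rose by 4.11 (SE 0.25, adjusted p = 9.84e-11) or 17.3-fold, and its 2 groups of arrays did not overlap. Dkk1 was at 1.34, 1.32, 1.49 and 1.63 at 95 h and at 0.21, 0.41, 0.21 and 0.34 at 8 d. It fell by 1.15 (SE 0.18, adjusted p = 5.27e-05) or 2.22-fold. These 2 members of the family thus moved in opposite directions. Neither had overlapping arrays, though the rule for naming the largest rises required that of Dkk2. Dkk3 rose by 1.08, Wif1, which binds Wnt ligands, rose by 0.90 and Frzb, a secreted Frizzled-like protein, fell by 0.58. Wif1 and Frzb were not called after quantile normalization (adjusted p = 0.0713 and 0.189). The call of Frzb was also lost without 95 h arrays 1 or 4 (adjusted p = 0.0732 and 0.0634) and without 8 d arrays 1 or 3 (adjusted p = 0.0943 and 0.0714).

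Of 16 measured Wnt ligands and receptors 5 rose, 1 fell and 10 were not called. Wnt2, a ligand made by endothelium and mesenchyme of vessels and placenta, was at 0.91, 0.84, 0.99 and 0.86 at 95 h and at 3.67, 2.45, 3.59 and 3.13 at 8 d. It was above the reference at both times and rose by 2.31 (SE 0.23, adjusted p = 2.1e-07) or 4.95-fold. The receptors Ror1 and Ror2, which bind Wnt5a-type ligands, rose by 1.40 and 1.35. Wnt5b fell by 0.79. Of 28 measured intracellular components 2 rose, 2 fell and 24 were not called, while 5 rose and 3 fell after quantile normalization. Lef1, a nuclear partner of beta-catenin and itself a Wnt target, was at 1.38, 1.59, 1.43 and 1.65 at 95 h and at -0.05, -0.04, 0.08 and -0.02 at 8 d. It fell by 1.52 (SE 0.25, adjusted p = 0.000154) or 2.87-fold. Ctnnb1, beta-catenin itself, was at -0.35 ± 0.18 and -0.32 ± 0.09 and was not called.

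Of 23 measured Notch pathway genes 5 rose, 3 fell and 15 were not called, while 4 rose and 7 fell after quantile normalization. Mfng, a glycosyltransferase that modifies Notch receptors, rose by 1.11 (SE 0.16, adjusted p = 2.14e-05), Notch4, an endothelial receptor, by 0.62 and Dll4, a ligand of arterial and sprouting endothelium, by 0.56. Aph1a, a subunit of the gamma-secretase that releases active Notch, rose by 2.07. Nrarp, a target and inhibitor of Notch, fell by 0.54. Notch1 was at -0.34 and -0.04 and was not called. The 4 arrays of Dll4 at each time overlapped, and it was not called after quantile normalization (adjusted p = 0.0624).

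Among 38 measured genes of BMP, TGF-beta and Nodal signalling 8 rose, 6 fell and 24 were not called. Fstl1, a secreted BMP antagonist, rose by 1.99 from -2.31 ± 0.18 to -0.32 ± 0.12. Id2, an inhibitor of basic helix-loop-helix factors, rose by 1.59 and Tgfb2, a ligand, by 1.32. Smad1, which carries BMP signals to the nucleus, was at 1.43, 1.00, 0.72 and 1.29 at 95 h and at -0.61, -0.45, -0.55 and -0.96 at 8 d. It fell by 1.75 (SE 0.20, adjusted p = 1.56e-06) or 3.36-fold. The ligand Bmp7 fell by 0.97 and the antagonist Nog by 0.78. Among 22 measured genes of FGF and PDGF signalling 5 rose and 6 fell. The falls included the ligands Fgf3 (-1.34) and Fgf10 (-1.27), and the rises included Pdgfrb and the ligand Pdgfc (1.21). Fgf10 was at 2.06, 1.99, 2.02 and 2.07 at 95 h and at 0.84, 0.73, 0.61 and 0.86 at 8 d, with no overlap of arrays.

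Imprinted genes and genes of the insulin-like growth factor axis rose in 10 of 15 measured cases and fell in 1, with a median of 0.69. Igfbp5, a binding protein of these growth factors, was at -3.15, -3.04, -3.06 and -3.19 at 95 h and at -0.25, 0.03, 0.02 and 0.25 at 8 d. It rose by 3.12 (SE 0.19, adjusted p = 1.46e-10) or 8.72-fold. Igfbp3 rose by 2.37, Plagl1, an imprinted zinc finger factor, by 2.22, Dlk1, a Notch-like membrane protein, by 1.99, Ndn (necdin) by 1.54 and Igf2 by 1.35. The separate probes of Igf2 gave 0.56 and 2.15. H19, the noncoding RNA next to Igf2, fell by 0.49 from -1.12 ± 0.06 to -1.62 ± 0.16, so these neighbours moved apart.

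Of 13 measured inhibitors of the cell cycle 6 rose and 0 fell, with a median of 0.54. Cdkn1c, the imprinted inhibitor p57, was at -3.22, -2.69, -2.50 and -2.42 at 95 h and at -0.79, -0.75, -0.57 and -1.15 at 8 d. It rose by 1.89 (SE 0.20, adjusted p = 4.57e-07) or 3.72-fold. Ccng2, an atypical cyclin of resting cells, rose by 1.35 and Cdkn1a, the inhibitor p21, by 0.72, with overlapping arrays and no call after quantile normalization (adjusted p = 0.0793). Of 45 measured genes of the cell cycle and DNA replication 6 rose and 11 fell, with a median of -0.144. With every array brought to 1 SD 11 rose and 7 fell, with a median of 0.149, so the direction of this list depended on the range of the arrays. Mcm2, a subunit of the replicative helicase, fell by 0.97, the mitotic kinase Aurka fell by 0.88 and Ccne1, a cyclin of entry into replication, fell by 0.76.

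Of 27 measured genes of the hypoxia response and glycolysis 11 rose and 1 fell, with a median of 0.33. Pdk1, a kinase that holds pyruvate out of the mitochondrial cycle, was at -0.28, -0.59, -0.07 and -0.92 at 95 h and at 1.37, 1.23, 1.30 and 1.27 at 8 d. It rose by 1.75 (SE 0.18, adjusted p = 2.98e-07). P4ha1, which hydroxylates collagen, rose by 1.56 and Ndrg1 by 1.54. Ldha, lactate dehydrogenase, fell by 0.85, and it was not called when the probe with the largest SD stood for the gene (adjusted p = 0.132). Of 24 measured genes of lysosomes and endocytosis 15 rose and 1 fell, with a median of 0.58, and after quantile normalization 10 rose and 1 fell. Cd9, a tetraspanin, rose by 1.89, Gaa, the acid glucosidase, by 1.82, Lamp2, a lysosomal membrane protein, by 1.56 and Psap, the precursor of saposins, by 1.33. Of 30 measured genes of actin, small GTPases and migration 13 rose and 1 fell. Cdc42ep3, an effector of Cdc42, rose by 2.02, Tmsb4x, which binds actin monomers, by 1.81, the chemokine Cxcl12 by 1.75, its scavenging receptor Ackr3 by 1.61 and Efnb2, a ligand of arterial endothelium, by 1.26.

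Several immediate early genes rose at 8 d. Such genes respond quickly to growth factors and other stimuli. Of 21 measured immediate early and heat shock genes 8 rose and 4 fell, with a median of -0.08, and 7 rose and 7 fell both after quantile normalization and with every array brought to 1 SD. Egr1 was at 0.77, 0.44, 0.52 and 0.28 at 95 h and at 3.15, 2.98, 3.09 and 2.55 at 8 d. It rose by 2.44 (SE 0.20, adjusted p = 6.76e-09), Ier2 by 2.35, Atf3 by 2.11 and Fos by 1.96. The separate probes of Fos gave 1.10 and 2.83. In Flk1- cells they rose too, Egr1 by 1.86, Ier2 by 1.62, Atf3 by 1.42 and Fos by 1.79. Hsph1, a chaperone of the cytosol, fell by 1.44 and Hspd1, a chaperone of mitochondria, by 0.83. Klf2 is an early response gene as well as a flow gene. In Flk1- cells it was at -0.24 and -0.71 and was not called.

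The other genes among the 15 largest rises and 15 largest falls belong to several groups. Ctla2b, an inhibitor of cysteine proteases, was at -1.53, -2.08, -1.49 and -2.18 at 95 h and at 1.67, 2.86, 1.26 and 1.80 at 8 d. It rose by 3.72 (SE 0.28, adjusted p = 2.37e-09), and its near-identical relative Ctla2a may share its signal. Itm2a, a membrane protein of cartilage, muscle and blood progenitors, rose by 3.70 from -4.02 ± 0.28 to -0.32 ± 0.29. Zadh2 and Cd248, the stromal marker endosialin, rose by 3.33 each, and Creb3l2, a factor of secretory cells, rose by 3.32. Among the falls were those of Pcolce2 (-2.33), while its relative Pcolce rose, and Upp1, a uridine phosphorylase (-2.29). Sycp3, a protein of the meiotic chromosome axis, fell by 1.96, Vrtn fell by 1.93 and Laptm4b fell by 1.91.

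Most of the change in Flk1+ cells was also seen in Flk1- cells over the same interval. In Flk1- cells 1723 features rose and 1357 fell. The fractions shared 1303 features that rose and 706 that fell, which was 52.0% of the calls of Flk1+ cells and 65.2% of those of Flk1- cells, and 9 were called in opposite directions. The difference between the 2 changes was tested as an interaction. It was called for 93 features, 0.533% of all, 61 with the higher change in Flk1+ cells and 32 with the lower. At an unadjusted p under 0.05 there were 1343. Sample numbers paired the fractions within a time, and with that pairing as a random block 251 features were called. Without 3 arrays of 84 h that stood apart 314 were called. Leaving out 1 of the 16 arrays gave 47 to 101, and the count fell below 62 without Flk1+ 8 d arrays 1, 2 or 3 (47, 50 and 57) and without Flk1- 8 d arrays 2, 3 or 4 (59, 61 and 51).

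**Figure D4:**
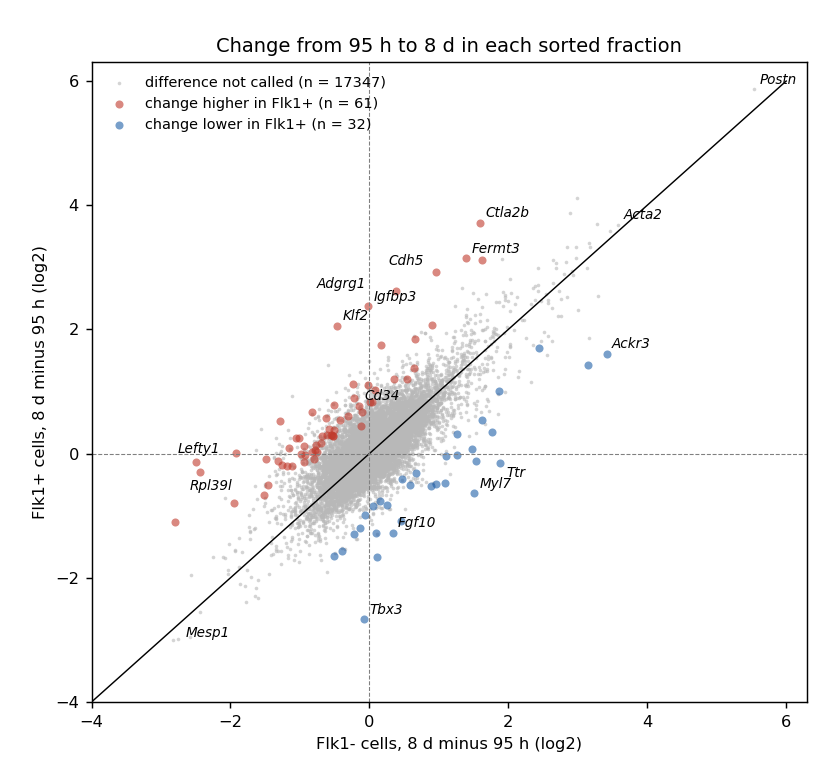
Log2 difference between 8 d and 95 h of each feature in Flk1- cells (horizontal) and Flk1+ cells (vertical), with the diagonal of equal change. Red points are the 61 features whose change was called higher in Flk1+ cells and blue points the 32 called lower, and Postn, Acta2 and Mesp1 lie near the diagonal.

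Some genes, Cdh5, Klf2 and Fermt3 among them, rose more in Flk1+ than in Flk1- cells. The interaction was called higher for 2 of 21 measured genes of endothelial junctions and surface and 1 of 20 endothelial and early blood factors. Among 15 measured genes of VEGF, angiopoietin, apelin and adrenomedullin signalling it was higher for 0 and lower for 1. It was called higher for 0 of 19 leukocyte and platelet genes and 1 of 17 erythroid and haem genes. That 1, Rhd, did not rise in Flk1+ cells (-0.19, and -1.25 in Flk1- cells). Cdh5 was at -3.10 in Flk1+ and at -2.97 in Flk1- cells at 95 h, and at -0.18 and -2.02 at 8 d. Both rose, and the rise was larger in Flk1+ cells by 1.97 (SE 0.22, adjusted p = 3.78e-05). Klf2 rose in Flk1+ cells and had a difference of -0.47 in Flk1- cells that was not called, so the changes differed by 2.53 (SE 0.28, adjusted p = 3.78e-05). Adgrg1, an adhesion receptor, rose by 2.62 in Flk1+ cells and had a difference of 0.38 in Flk1- cells, and the changes differed by 2.23. For Ctla2b they differed by 2.13 and for Fermt3 by 1.76, with rises in both fractions. Igfbp3 was at -2.69 in Flk1+ and at -0.51 in Flk1- cells at 95 h, and at -0.31 and -0.53 at 8 d, so the fractions met at 8 d, and the changes differed by 2.39. Further such differences were those of Pdk1 (1.59), Col18a1 (1.50), Mfng (1.12) and Cd34 (0.92). The call of Col18a1 was lost without any 1 of 12 of the 16 arrays and that of Cd34 under quantile normalization (adjusted p = 0.121).

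For another set the higher value of the interaction came from a fall in Flk1- cells. Lefty1, a secreted Nodal inhibitor, was at -0.02 and -0.16 in Flk1+ cells, whereas in Flk1- cells it went from 2.42 to -0.08 and fell by 2.50. The changes differed by 2.36 (SE 0.24, adjusted p = 2.36e-05). Rpl39l, a ribosomal protein paralog, was at -1.45 and -1.75 in Flk1+ cells and fell by 2.43 in Flk1- cells.

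Other genes fell in Flk1+ cells from levels above those of Flk1- cells. Tbx3 was at 0.56 and 0.47 in Flk1- cells, and the changes differed by -2.58 (SE 0.25, adjusted p = 1.33e-05). Fgf10 was at 0.91 and 1.24 in Flk1- cells, and the changes differed by -1.61. Vstm2b, an immunoglobulin-domain membrane protein, fell by 1.65 in Flk1+ and by 0.50 in Flk1- cells, a difference of -1.14. The differences of Gata3 (-1.38) and Hoxb1 (-1.18) had the same sign, and their calls were lost without any 1 of 14 (Gata3) or 9 (Hoxb1) of the 16 arrays.

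For some genes the rise in Flk1- cells exceeded the change in Flk1+ cells. Hand1 was at 2.11 in Flk1+ and at 0.84 in Flk1- cells at 95 h, and at 1.99 and 2.38 at 8 d, and the changes differed by -1.66 (SE 0.33, adjusted p = 0.019). Without Flk1+ 8 d array 1 or 2 that call was lost (adjusted p = 0.0531 and 0.0539). Ackr3 rose in both fractions, by 1.61 and by 3.42, and the changes differed by -1.81. Pmp22, a myelin protein also found in mesenchyme, rose by 1.42 and by 3.15, a difference of -1.73 (adjusted p = 0.0456) that was not called without any 1 of 15 of the 16 arrays. Nrp1 rose by 1.69 and by 2.45, a difference of -0.75 (adjusted p = 0.0194) that was not called without Flk1+ 8 d array 2 (adjusted p = 0.0539) or when the probe with the largest SD stood for the gene (adjusted p = 0.271). Myl7 rose by 1.51 in Flk1- cells and the changes differed by -2.15, and Ttr, the transthyretin of liver and yolk sac, rose by 1.87 there and the changes differed by -2.02.

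**Figure D5:**
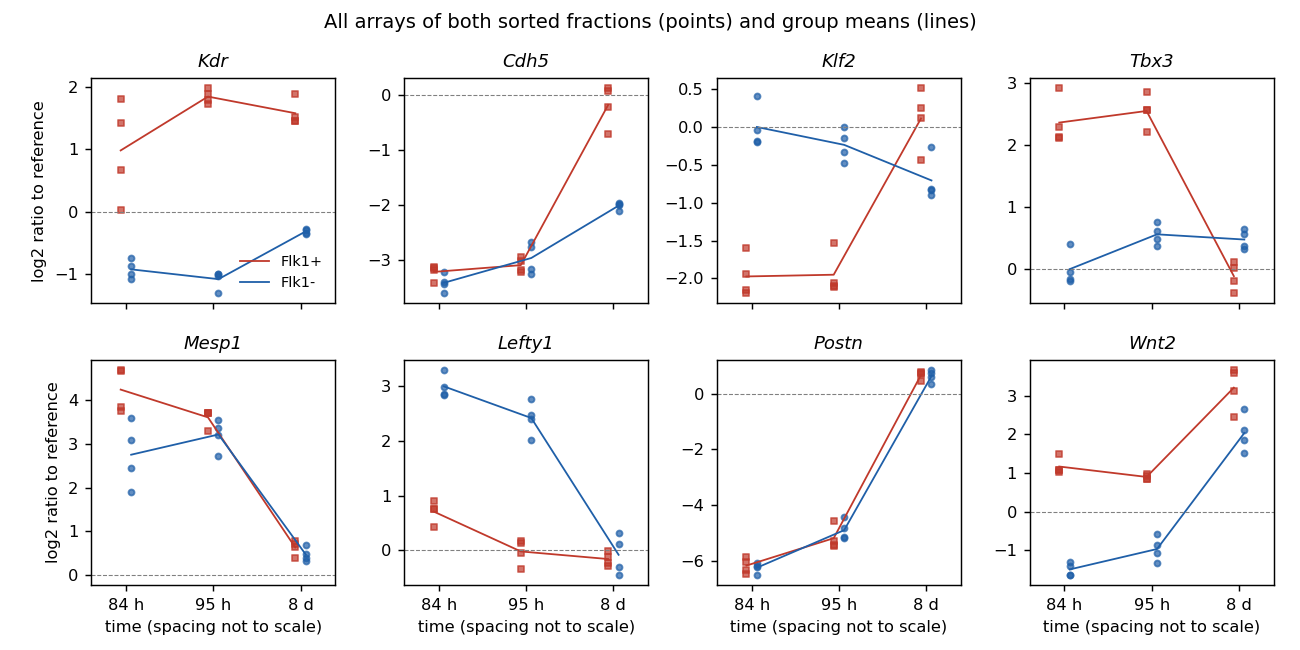
Log2 ratio to the reference of 8 genes on every array of Flk1+ cells (red squares) and Flk1- cells (blue circles) at 84 h, 95 h and 8 d, with lines through the group means. Cdh5 and Klf2 rise after 95 h in Flk1+ cells, Tbx3 falls there, Lefty1 falls in Flk1- cells, and in both fractions Mesp1 falls and Postn rises.

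The arrays of 84 h, those that stood apart included, give the level before 95 h. In Flk1+ cells Cdh5 was at -3.23 at 84 h and at -3.10 at 95 h, Klf2 at -1.97 and -1.95, and Dkk2 at -2.17 and -2.53. Tbx3 was at 2.36 and 2.55 and Wnt2 at 1.17 and 0.90, with Flk1- means of Wnt2 at -1.49 and -0.96. Mesp1 was at 4.24 and 3.61, Gsc at 3.17 and 2.62, and Postn at -6.18 and -5.20. No test was made between 84 h and 95 h here.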

How the data were processed

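Sorted Flk1+ and Flk1- cells were hybridised on 24 Agilent mouse arrays of 2 colours, per the labels' protocols. RNA of the samples was isolated with RNeasy columns and labelled with Cy5, RNA of whole pups was isolated with guanidine isothiocyanate and labelled with Cy3, and both were amplified. There was no dye swap, so a dye effect would be the same on all arrays. The deposited values, handled as log2 ratios, ran from -6.42 to 5.33. The log base and how the ratios were normalized are not given in the sources used here.

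The table had 20280 probes, of which 11813 had 1 gene in the platform annotation, 559 several and 7908 none listed. The median of each array was set to 0 and the probes of a gene were averaged, giving 8973 named genes and 8467 unnamed probes. For 30 genes single probes were called in opposite directions. Linear models with a mean per group were fitted to all 24 arrays in limma 3.58.1 (R 4.3.3), with the variances moderated by eBayes and p-values adjusted by the Benjamini-Hochberg method over all features. No minimum fold was set. The script was tested on simulated data. Arrays limit the precision by their number, 4 per group.

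Genes named are Kdr, the 15 largest rises and 15 largest falls without overlap, up to 10 called members per list, uncalled members with their values, and the 6 largest differences between the fractions in each direction. From these the printed genes were picked after their values were seen and lean to those whose call held across settings. The members and lists were chosen with earlier results of these data known. Sample numbers of 95 h and 8 d did not pair (correlations of deviations between -0.134 and 0.000413). Those of the fractions within a time did (between 0.107 and 0.437). Alternatives were other scalings, other arrays in the fit, array weights, blocks, other treatments of probes, other filters and leaving out each array. The scaling to 1 SD was chosen after seeing the data.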

Additional observations from a re-analysis of the deposited data

Results flagged for a closer look

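For 20 of the 332 groups of 4 arrays checked, over the genes named and both times, 1 array lay far from the other 3 relative to the range of its group. Chance gives about 1 in 20, so the number is near that of chance. At 95 h array 2 of Flk1+ cells was low for Mesp1 (3.30, others 3.70 to 3.72), Lhx1 (1.28), Fgf8 (0.475), Hbb-y (-0.482) and Vim (-1.32), and it was high for Igfbp3 (-2.38) and Epcam (-0.778). At 95 h array 1 was low for Adgrg1 (-2.71) and Pdgfrb (-1.83) and high for Klf2 (-1.53) and Ccne1 (1.70). Array 3 of 95 h was high for Pdgfc (-0.493), and array 4 was low for Clec14a (-1.37) and high for Plagl1 (-1.74).

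At 8 d array 4 was high for Kdr (1.89, others 1.46 to 1.51). Array 1 of 8 d was low for Esam (-0.585) and high for Tgfbi (1.41). Array 2 of 8 d was low for Thbd (-1.09) and Tbx4 (1.37, others 2.51 to 2.66) and high for Calcrl (-0.487).

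The change from 95 h to 8 d differed between Flk1+ and Flk1- cells, by the interaction in limma, for 23 of the genes named. It was higher in Flk1+ cells for Klf2 by 2.53, Igfbp3 by 2.39, Lefty1 by 2.36, Adgrg1 by 2.23, Rpl39l by 2.14, Ctla2b by 2.13 and Cdh5 by 1.97. It was also higher for Fermt3 by 1.76, Pdk1 by 1.59, Col18a1 by 1.50, Mfng by 1.12 and Cd34 by 0.924. The difference was negative for Tbx3 (-2.58), Myl7 (-2.15), Ttr (-2.02), Ackr3 (-1.81), Pmp22 (-1.73), Hand1 (-1.66) and Fgf10 (-1.61). It was also negative for Gata3 (-1.38), Hoxb1 (-1.18), Vstm2b (-1.14) and Nrp1 (-0.751). Of these 23 calls 16 held in each of 27 settings, and the genes named lean to those whose call held.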

How the results depend on the processing

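The 3861 calls became 5864 without Flk1+ arrays 2 and 4 and Flk1- array 4 of 84 h, 6059 with array weights and 777 with a difference of at least 1. Leaving out each of the 8 arrays in turn gave 2873 to 3687. With the sample number as a replicate block there were 3979 calls for 8 d against 95 h, where the numbers did not pair the samples, and 3890 with the block within a time. For the difference between the fractions the 93 calls became 251 with the block within a time, 161 with the 16 arrays compared alone, 314 without those 3 arrays of 84 h, 288 with array weights and 53 with a difference of at least 1, and leaving out single arrays gave 47 to 101. The causes of these shifts were not tested, except that a minimum difference can only remove calls. With every array brought to 1 SD the medians of 2 lists changed sign, to -0.127 for caveolae and lipid handling and to 0.149 for the cell cycle and DNA replication. Of 149 named genes called for 8 d against 95 h, 139 kept their call in all 19 settings and 10 lost it in 1 or more. Another 7 that were not called gained a call (Myl7, Cnn1, Rpl39l, Aplnr, Sox18, Myh11 and Ttr, all lower). With a call in either of the fits compared, 0 of the 166 named changed direction, and sign changes without a call were not counted. The named genes lean to those whose call held, so these counts do not describe all calls. Of all 3861 calls, 3023 were shared after quantile normalization and 2867 without Flk1+ 8 d array 2. The number of arrays, 4 per group, limits what could be called.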

Other observations

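Genes of the nucleolus and of ribosome assembly were lower at 8 d. Of 54 measured members of a list chosen after its values were seen, 42 fell, 0 rose and 12 were not called in Flk1+ cells, with a median difference of -0.82. In Flk1- cells 29 fell and 0 rose, with a median of -0.53. No test of the list was made.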
